A study of Ulva lactuca with 4 samples.

Results

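Among 105451 contigs assembled in a study of the green seaweed Ulva lactuca, 223 met the rule used here. They had at most 3 reads in the library of submerged thalli. They also had at least 100 scaled counts in each library of desiccated thalli, at 24 h, 36 h and 72 h. A contig is a transcript sequence put together from the reads themselves, without a genome, and a scaled count is the number of reads on it divided by a size factor for its library. The 223 members belonged to 74 of the 70737 clusters of the assembly, a cluster being the contigs that share a c and a g number in their identifiers and can stand for 1 gene. They were chosen by these values, so their near absence in water and their presence at each duration describe the rule and are given without a test. How they differed among the desiccated libraries above the floor of 100, and how the other contigs of their clusters behaved, was not used by the rule.

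Ulva lactuca, the sea lettuce, is a thin sheet of cells that grows between the tide marks and dries when the tide leaves it exposed. Seaweeds of this zone tolerate repeated loss of most of their tissue water and resume metabolism once wetted. In green algae and land plants, drying is known to bring on transcripts for compatible solutes, antioxidant enzymes, chaperones and proteins that protect membranes. Some such transcripts are hardly present in wet tissue, but whether the members are responses to drying was not tested. The tables used here pair no contig with a gene name, so no member could be given a function and no list of desiccation genes could be applied. Whether each member came from the alga or from other organisms on the thalli was not tested.

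Total RNA of thalli was sequenced from 4 libraries, 1 per condition. The thalli had been collected and kept in the laboratory to acclimatise. The control thalli were always submerged. Thalli of the remaining 3 conditions were kept at 20% moisture, for 24, 36 or 72 h. The sources used here give neither the number of thalli in a library nor the time at which the control was sampled. The labels name a tissue but no strain, sex or age, and with no gene names the tissue could not be checked against markers. The libraries held between 52643595 reads (the control) and 74243310 reads (24 h) on contigs, and the 72 h library held 53279365. With 1 library per condition there is no replicate error, and each comparison is between libraries. Intervals are exact 95% intervals for counting error only. In tissue RNA, fewer cells that express a transcript and less of it per cell cannot be told apart.

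In the control, 148 of the 223 members had 0 reads, 40 had 1 read, 18 had 2 and 17 had 3, which makes 127 reads in all. A control count of 0 was taken to allow up to 3 reads, or 3.39 scaled counts. The members took 0.000241% of the reads in the control (0.000201 to 0.000287), 0.294% at 24 h, 0.249% at 36 h and 0.233% at 72 h. Among the 29826 contigs with at least 100 scaled counts at each duration, the 223 members made up 0.748%, and 94.4% had at least 100 scaled counts in the control as well. Just beyond the limit of the rule, 78 such contigs had 4 to 10 control reads and 87 had 11 to 20. The number of contigs per control count was thus highest at 0 and fell to between 7 and 14 from 4 reads to 10.

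**Figure D1:**
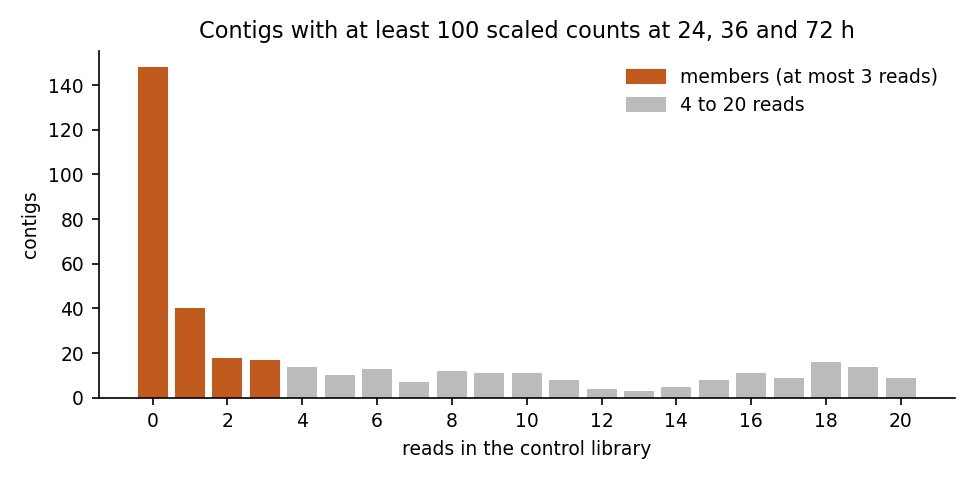
Number of contigs (vertical axis) by their reads in the control library (horizontal axis), for contigs with at least 100 scaled counts at 24, 36 and 72 h. The bar at 0 reads holds 148 contigs, and bars from 4 to 20 reads hold 16 or fewer each; contigs with over 20 reads are not drawn.

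The members that stood highest over the control had high read numbers in each desiccated library. They were picked as the highest on a contrast the rule had used, so their intervals describe counting error and test nothing. Control thalli gave 1 read of c19303_g2_i1, and dried thalli gave 9121 reads at 24 h, 4756 at 36 h and 3604 at 72 h. Scaled, the 24 h library was 7167 times the control (1286 to 283126), and the 72 h library 3582 times (643 to 141539). The contig c19068_g1_i1 had 2, 11047, 5149 and 3182 reads in the same order, the most reads of any member at 24 h, a ratio of 4340 (1201 to 35845). Both were far lower in water than in any dried library and lowest at 72 h among the dried ones. The contig c377_g1_i2 had 1, 5632, 5579 and 3246 reads, the most of any member at 36 h, where its ratio was 4308 (773 to 170172). The contig c26383_g1_i3 had 0 reads in the control and 3172, 2704 and 1607 in the dried libraries. At 36 h the lower bound of its ratio to the control was 566. The ratio with 3 reads put in place of 0 was 696, and the contig was ranked by that value. Unlike these, c14047_g1_i1 was highest at the last duration, with 2 reads in the control, 718 at 24 h, 1680 at 36 h and 5190 at 72 h, 2580 times the control (714 to 21305).

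Members covered a wide range of counts. Their scaled counts ran from 100.4 to 9812 at 24 h with a median of 568, from 102 to 4869 at 36 h with a median of 442, and from 103 to 5831 at 72 h with a median of 357. Over all 29826 contigs with at least 100 scaled counts at each duration, the medians were 754, 748 and 753. Contig lengths are not in the tables, so these are counts and not levels per length. The members' median was thus below that of the whole set at every duration and furthest below at 72 h. With 3 reads put in place of any smaller control count, the least difference from the control was 29.6-fold at 24 h, 30.1-fold at 36 h and 30.5-fold at 72 h, and 158, 141 and 125 members were 100-fold or more above it.

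**Figure D2:**
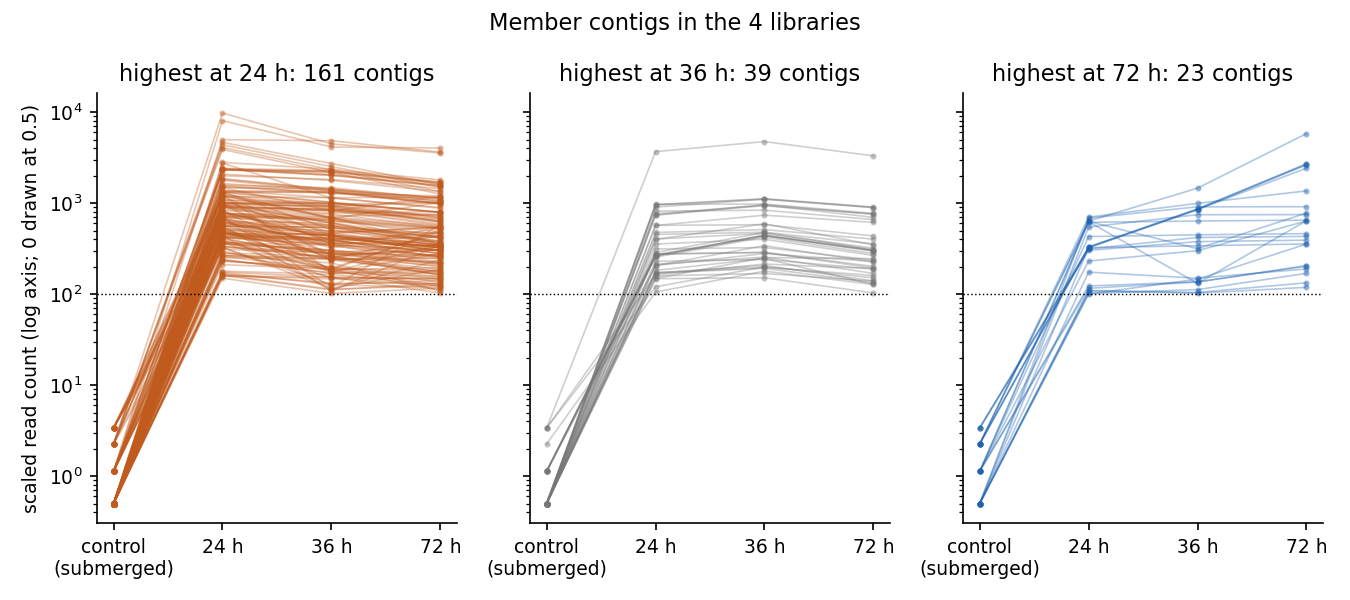
Scaled read counts of the 223 members (vertical log axis, 0 drawn at 0.5) in the 4 libraries, 1 line per contig, split by the duration with the highest count. In 161 contigs the 24 h library was highest, in 39 the 36 h library and in 23 the 72 h library; the dotted line marks the floor of 100 used by the rule.

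Of the contigs with at most 3 control reads, 1591 reached 100 scaled counts at 1 duration or more. Besides the 223 members, 23 did so at 24 h and 36 h, 44 at 24 h and 72 h, and 42 at 36 h and 72 h. At 1 duration alone there were 118 for 24 h, 46 for 36 h and 1095 for 72 h. Members thus made up 54.7% of the 408 silent contigs that were on at 24 h, 66.8% of the 334 at 36 h and 15.9% of the 1404 at 72 h. The 72 h library stands apart in this count. The libraries also differed in the number of contigs with any read, 81547 in the control, 87832 at 24 h, 87806 at 36 h and 98649 at 72 h. Without the 24 h, 36 h or 72 h library in the rule, 265, 267 or 246 contigs would be members. The same rule with another library in the place of the control found 16 contigs of 11 clusters missing from 24 h alone, 3 contigs of 2 clusters missing from 36 h and 0 missing from 72 h. With every library thinned to the smallest total, 206 contigs were missing from the control in this way, against 24 from the 24 h library, 3 from that of 36 h and 0 from that of 72 h. In the reverse direction, 18 contigs of 15 clusters had at least 100 scaled counts in the control and at most 3 reads at every duration, none above 831 control reads.

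Most members were highest at 24 h, and most were lower at 72 h than at 24 h. From 24 h to 72 h, 185 of the 223 members fell in scaled count and 38 rose, with a median log2 ratio of -0.48. Of all 30862 contigs with at least 100 scaled counts in both libraries, 50.8% were lower at 72 h, with a median of -0.02. From 24 h to 36 h, 166 members were lower, against 51.6% of all contigs in that comparison, and the members' median was -0.17. From 36 h to 72 h, 164 were lower, against 56.0% of all contigs, and the median was -0.34. With library totals as scaling 136 members were lower from 24 h to 36 h, and the median from 24 h to 72 h was -0.35, while that of the 29826 contigs moved from -0.02 to 0.12.

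Scaled counts stayed within 2-fold over the 3 durations in 167 members (74.9%), against 65.0% of the contigs with at least 100 scaled counts at each duration, and the median ratio of the highest to the lowest duration was 1.55 in members and 1.72 in those contigs. At least a 4-fold gap between a pair of durations was found in 9 members (4.04%), against 6.86%. Members lay nearer the floor of 100, with a median at 72 h of 357 against 753. Counts near the floor leave less room under the rule for gaps between durations. With a minimum of 50 scaled counts 27 of 312 members were 4-fold apart, and with 10 control reads allowed 26 of 301. The share of all contigs at a minimum of 50 was not computed. The order 24 h above 36 h above 72 h held in 125 members, or 56.1%, and in 25.7% of the contigs. The 24 h library was the highest in 161 members (72.2%, against 38.6%), and the 72 h library was the lowest in 149 (66.8%, against 37.9%). With library totals as scaling, 124 members were highest at 24 h and 143 lowest at 72 h. The shares of all contigs were not computed under that scaling. Contigs of 1 cluster move together, so the counts were also taken over the 74 clusters with their members summed. The 24 h library was then highest in 52 of 74 clusters (70.3%) and the 72 h library lowest in 39 (52.7%). The order 24 h above 36 h above 72 h held in 35 of these clusters (47.3%). The median log2 ratio was -0.28 from 24 h to 36 h, -0.097 from 36 h to 72 h, with 43 of 74 clusters lower, and -0.46 from 24 h to 72 h. In the step from 36 h to 72 h, these sums lay near the values of all contigs given above. Those values are of single contigs, and none was computed for sums over all clusters. Of the cluster sums, 42 (56.8%) stayed within 2-fold and 6 (8.11%) were at least 4-fold apart, with a median ratio of the highest to the lowest duration of 1.75. The share within 2-fold thus lay above the 65.0% of the contigs for single members. For cluster sums there was no like share to set it against.

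**Figure D3:**
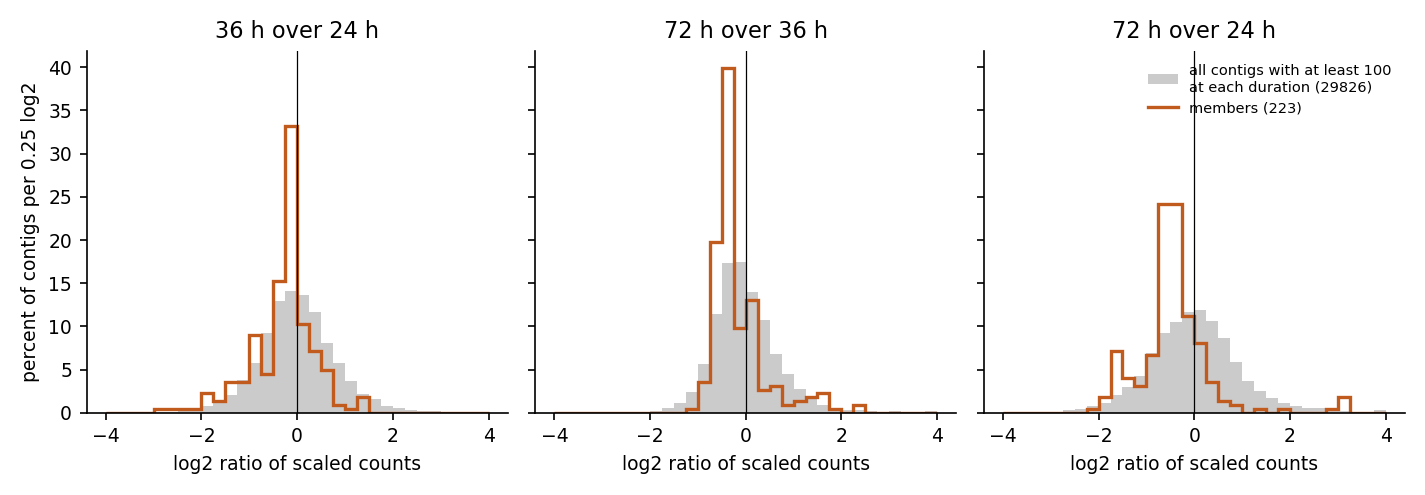
Log2 ratios of scaled counts between pairs of desiccated libraries (horizontal axis) as percent of contigs per 0.25 log2 (vertical axis), for the 223 members (line) and for all 29826 contigs with at least 100 scaled counts at each duration (filled); ratios beyond 4 are put in the end bins. Members pile up left of 0, with medians of -0.17, -0.34 and -0.48.

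A narrow range of ratios held many members. In the first step 74 members of 19 clusters had a log2 ratio between -0.25 and 0, which is 33.2% of members and 14.1% of the 29826 contigs. In the second step 89 members of 26 clusters lay between -0.5 and -0.25, or 39.9% against 17.3%. Both held for 44 members of 12 clusters (19.7%, against 2.42% of the contigs), of which 36 had 0 control reads. These bins were picked after the values were seen, and several contigs of 1 cluster enter each count.

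Of the 56 members that differed by 2-fold or more over the durations, 29 members of 15 clusters fell at each step, 20 of 14 clusters were lowest at 36 h, and 7 of 4 clusters rose at each step. None was highest at 36 h. The 4 contigs c27829_g1_i2, c27829_g1_i3, c27829_g1_i5 and c27829_g1_i6 of 1 cluster rose in parallel. The contig c27829_g1_i5 had 2 reads in the control, 374 at 24 h, 997 at 36 h and 2417 at 72 h, that is 2.62 times as many scaled counts at 36 h as at 24 h (2.32 to 2.96) and 8.17 times as many at 72 h (7.33 to 9.14). The contig c27829_g1_i6 had 2, 365, 976 and 2165 reads, with a ratio of 2.63 (2.33 to 2.97) for the first step. The contig c14047_g1_i1, named above, rose most, by 9.14-fold from 24 h to 72 h (8.46 to 9.90). Over all contigs with at least 100 scaled counts in both libraries, 3.08% were at least 4-fold higher at 72 h than at 24 h, and 5 of the 223 members were. These 5 lie in 2 clusters.

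At the other end, c27819_g1_i3 had 2 reads in the control, 1410 at 24 h, 201 at 36 h and 248 at 72 h. It was 7.14-fold lower at 36 h than at 24 h (6.15 to 8.32) and 4.49-fold lower at 72 h (3.92 to 5.16), the only member at least 4-fold lower over that interval, against 1.99% of all contigs, though with library totals or the upper quartile as scaling there were 2 or 3. The contig c27129_g3_i5 fell at each step, with 2, 1495, 588 and 302 reads, and was 3.91-fold lower at 72 h than at 24 h (3.46 to 4.44). The contig c28018_g2_i1 had 1, 781, 137 and 515 reads, and c28077_g1_i1 had 2, 705, 151 and 573 reads. Both dipped at 36 h and were back near their 24 h count at 72 h. From 24 h to 36 h, c28018_g2_i1 was 5.80-fold lower (4.83 to 7.01), and 4 members in all were at least 4-fold lower, against 1.04% of all contigs. None was 4-fold higher, against 1.56%. From 36 h to 72 h, c28077_g1_i1 was 4.89-fold higher (4.08 to 5.88) and c28018_g2_i1 4.84-fold higher (4.001 to 5.89). They were the only members 4-fold higher in that step, against 2.03% of all contigs (3 members with library totals as scaling), and none was 4-fold lower, against 0.344%. By the interval bound nearest to 1, the firmest falls from 36 h to 72 h were those of c68239_g1_i1, with 0, 1390, 797 and 317 reads and a 1.95-fold fall (1.71 to 2.23), and of c16322_g1_i3, with 2, 4605, 2674 and 1198 reads and a 1.73-fold fall (1.62 to 1.86).

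The steadiest of the 26 members with at least 1000 scaled counts at each duration were both contigs of the cluster c20647_g1. The contig c20647_g1_i2 had 1 read in the control, 1547 at 24 h, 1318 at 36 h and 1043 at 72 h, or 1374, 1150 and 1172 scaled counts, a ratio of 0.853 for 72 h over 24 h (0.788 to 0.923). The contig c20647_g1_i1 had 1, 1759, 1464 and 1077 reads, a ratio of 0.775 (0.717 to 0.836). Both lay below 1 by more than counting error.

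The members were also split by their control reads. Of the 148 members with 0 control reads, 129 (87.2%) stayed within 2-fold and 0 were 4-fold apart. Of the 75 with 1 to 3 reads, 38 (50.7%) stayed within 2-fold, and all 9 members that were 4-fold apart belonged here. Their log2 ratios of 72 h to 24 h ran from -1.80 to 1.83 with a median of -0.50 in the first set, and from -2.17 to 3.19 with a median of -0.34 in the second. Summed per cluster, 27 of 36 clusters with 0 control reads on their members stayed within 2-fold, and 15 of 38 of the others. This split was chosen after the values were seen.

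The members came to 3.01 contigs per cluster, against 3.69 for the 29826 contigs with at least 100 scaled counts at each duration, which lay in 8080 clusters. Of the 74 clusters, 30 held 1 member and 44 held several, and these 44 held 193 of the members. Of the 223 members, 91.0% lay in clusters of several contigs, close to the 93.9% over all contigs with at least 100 scaled counts at each duration. In 23 clusters of several contigs every contig was a member. The 74 clusters carried 68 different c numbers, and 4 of the 74 clusters belonged to c27980. The cluster with the most members was c28109_g2, with 12 contigs, all members and all with 0 control reads. Its contigs had between 319 and 1230 reads at 24 h, between 302 and 1161 at 36 h and between 144 and 617 at 72 h, 9939, 9160 and 4915 in sum. The 12 ratios of 72 h to 24 h ran from 0.571 to 0.666, so all 12 fell by a like share. The cluster c26276_g1, named by identifier order among 3 clusters with 10 members, also had 0 control reads on all 10 of its contigs, with 6242, 5960 and 3695 reads in sum. Its 10 ratios of 72 h to 24 h ran from 0.667 to 0.932.

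Within a cluster, members changed almost in parallel. In the 44 clusters with several members, the log2 ratio of 72 h to 24 h differed between the highest and the lowest member by 0.12 in the median cluster, from 0.01 to 0.58. Between these clusters the ratio of the summed members ran from -1.97 to 2.997. The 4 contigs of c16322_g1 had 2 reads each in the control and 4392, 4944, 4605 and 5261 at 24 h. The sources used here do not say how reads that match several contigs were counted, so a read may enter more than 1 contig of a cluster and sums over a cluster may count it more than once.

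**Figure D4:**
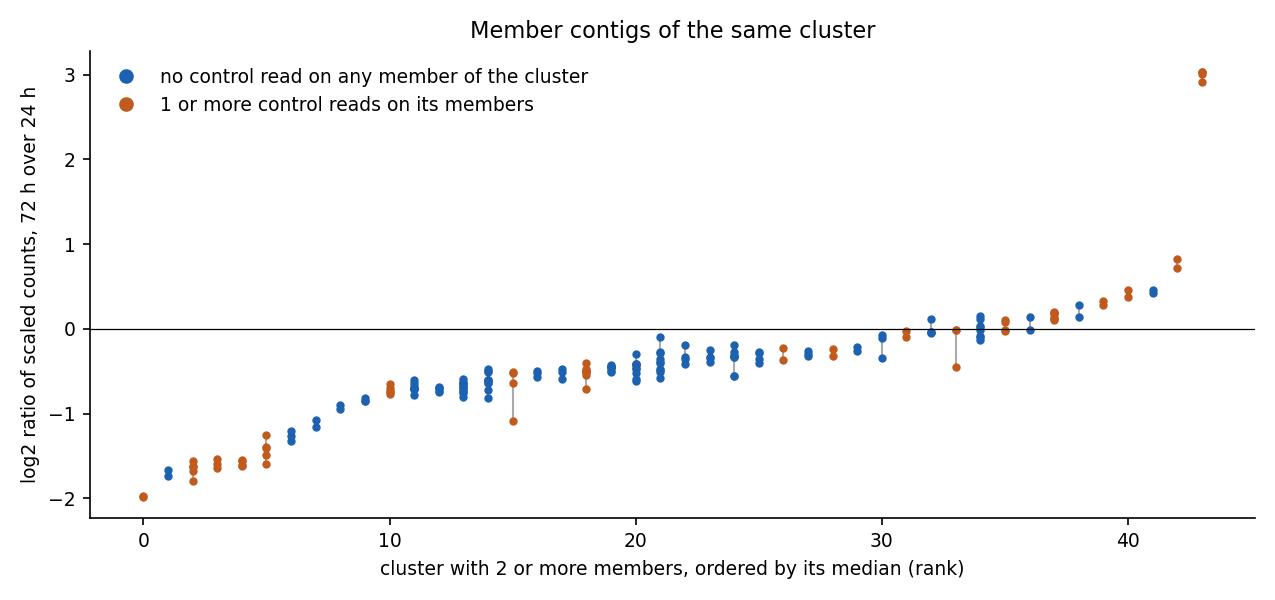
Log2 ratio of scaled counts of 72 h over 24 h (vertical axis) for each member of the 44 clusters with 2 or more members, 1 column per cluster in order of its median. Points of a cluster lie close together, with a median range of 0.12, while clusters span from -1.97 to 2.997; the cluster at the far right is c27829_g1.

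The 5 clusters with the most reads took 34.99% of the members' reads at 24 h, 34.9% at 36 h and 31.5% at 72 h. These leading clusters were picked after their values were seen. The cluster c26383_g1 led at each duration, with 0 reads in the control and 21661, 19074 and 11321 reads on its 10 contigs. The cluster c16322_g1 had 8, 19202, 11197 and 5069 reads, a log2 ratio of -1.58 for 72 h over 24 h, and c26048_g1 had 5, 14405, 13894 and 8064 reads, a log2 ratio of -0.50. The members of c27829_g1 had 9, 1478, 3935 and 9326 reads. The first 3 declined from 24 h to 72 h, and the last rose by 2.997 on the log2 scale.

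The same clusters held 91 other contigs, in 31 clusters, that did not meet the rule. At most 3 control reads were found on 48 (52.7%, against 39.4% of all contigs), of which 40 had 0, and each of these 48 missed the rule by a count below 100 at 1 duration or more. Summed per cluster, all 91 other contigs together were at least 4-fold above the control in 28 of the 31 clusters at 24 h. The number was also 28 at 36 h and 28 at 72 h, each on the log2(scaled count + 1) scale. Over all 13359 clusters with at least 100 scaled counts in 1 library or more, 10.9%, 9.42% and 19.8% were that high. Those were whole clusters that passed a filter. The 31 sums left out the members and passed no such filter, so the sets are not alike. Over the 31 sums, the median log2 ratio to the control was 6.49 (24 h), 6.09 (36 h) and 5.62 (72 h). Reads can be shared between contigs of a cluster, so these partners are not a separate measurement. With every contig counted, 51 of the 74 clusters had at most 3 reads in the control, 32 had 0, 18 had 4 to 30 and 5 had over 100.

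**Figure D5:**
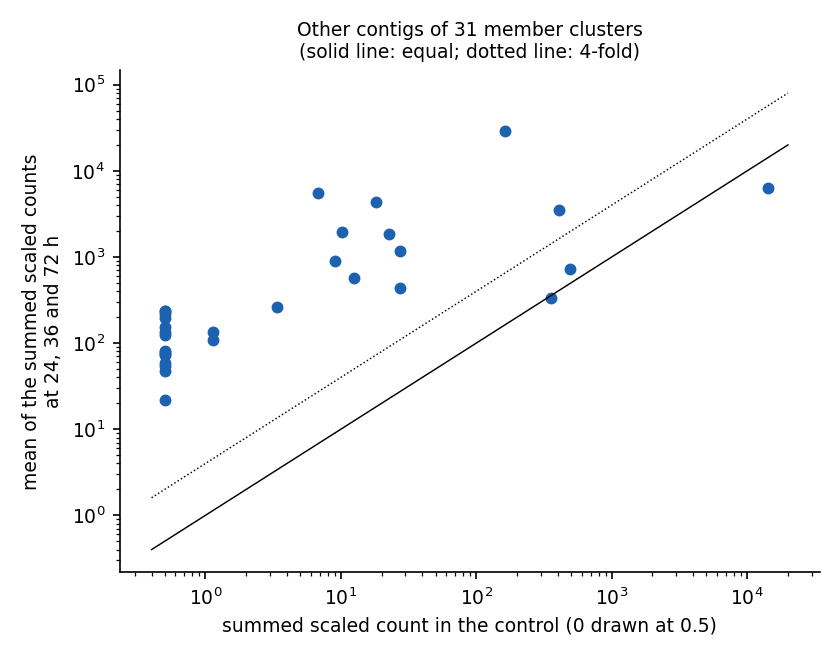
Summed scaled counts of the contigs that are not members, for the 31 member clusters that have such contigs, in the control (horizontal log axis, 0 drawn at 0.5) and as the mean of 24, 36 and 72 h (vertical log axis). Of the 31 points, 28 lie above the dotted 4-fold line; c27527_g1 and c28094_g5 lie below the solid line of equal counts.

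In 5 clusters, singled out after their values were seen, members silent in water stood beside contigs that were read there. The cluster c27527_g1 was the widest case, with 22 contigs. Its 4 members, c27527_g1_i6, c27527_g1_i14, c27527_g1_i15 and c27527_g1_i18, had 0 control reads and between 169 and 194 reads at 24 h, 117 and 147 at 36 h and 104 and 126 at 72 h. In total 11 of its contigs had 0 control reads. Another 8 of its contigs had between 660 and 2715 control reads, and their scaled counts were 0.259 to 0.276 times the control at 24 h, 0.433 to 0.49995 at 36 h and 0.446 to 0.539 at 72 h. Contigs of this cluster thus went in opposite directions, and the cluster as a whole was lower after drying. In c27434_g5, the member c27434_g5_i5 had 0 control reads and 323, 230 and 139 reads after drying, while c27434_g5_i1 had 165, 152, 130 and 120 reads and c27434_g5_i6 had 176, 154, 136 and 130. Of its other contigs, c27434_g5_i3 and c27434_g5_i4 had 30 control reads each and were 12.4-fold and 6.08-fold higher at 24 h, and c27434_g5_i2 had 31, 42, 22 and 23 reads. In c28094_g5, the member c28094_g5_i2 had 3, 184, 246 and 170 reads beside c28094_g5_i3 with 133, 92, 88 and 72, c28094_g5_i1 with 103, 236, 81 and 47, and c28094_g5_i4 with 77, 133, 182 and 125. The last was above the control at each duration, by 1.36, 1.82 and 1.61 times in scaled counts.

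The 2 remaining clusters were higher after drying in every contig. In c23156_g1, the member c23156_g1_i6 had 3 control reads and 4155, 5463 and 2953 reads after drying, 1088 times the control at 24 h (372 to 5280). The other 5 contigs had 29 control reads each and 6096 to 6296 reads at 24 h, 165 to 171 times the control. In c27842_g2, the member c27842_g2_i1 had 1, 643, 125 and 309 reads, and its partners c27842_g2_i2 and c27842_g2_i3 had 177 and 187 control reads and were 10.4-fold and 13.5-fold higher at 24 h. Member and partners were all lowest at 36 h among the dried libraries.

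In the authors' deposited table for 24 h against the control, 181 of the 223 members had an adjusted p-value under 0.05 and were higher, against 0.331% of all contigs tested. At 36 h there were 172 members, against 0.334%, and at 72 h 89 members, against 0.474%. The rule used these contrasts, so nothing is read from these counts. In the authors' deposited tables the members were 59.5% of all 304 contigs so called as higher at 24 h, 55.8% of 308 at 36 h and 18.1% of 492 at 72 h. The call followed the read number, since at 24 h no called member had under 233 reads and no uncalled member had over 426. At 72 h the corresponding numbers were 389 and 485 reads. In the authors' deposited tables for 72 h against 24 h and 72 h against 36 h, 0 members had an adjusted p-value under 0.05, against 0.590% and 0.971% of all contigs called higher and 0.0182% and 0.0337% called lower. Their status column called 5 members higher at 72 h than at 24 h, against 2.55% of all contigs. They were c14047_g1_i1 and the 4 members of c27829_g1. It called 6 higher at 72 h than at 36 h, against 2.72%, and 0 lower in either table, against 0.532% and 0.288%. These p-values rest on 1 library per condition.

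At the borders of the rule, contigs just inside and just outside had like counts. The lowest members were c27980_g10_i3, with 0, 113, 168 and 317 reads, and c27527_g1_i18, with 0, 169, 117 and 104 reads, whose lowest scaled counts were 100.4 and 102. Just outside were c27129_g3_i3, with 1, 482, 175 and 89 reads and 99.9997 scaled counts at 72 h, and c70245_g1_i1, with 1, 489, 132 and 87 reads and 97.8 scaled counts at 72 h. Between 100 and 110 scaled counts at their lowest duration lay 10 members, and 7 contigs with at most 3 control reads lay between 90 and 100. At the control limit, the members with 3 reads and the highest counts at their lowest duration were c23156_g1_i6, described above, and c16632_g1_i1, with 3, 1358, 780 and 912 reads. Of the 14 contigs with 4 control reads that met the floor, c13936_g1_i2 had 4, 16213, 9060 and 4001 reads and c13936_g1_i1 had 4, 14024, 8042 and 3663. Both had more reads at 24 h than any member, so the limit of 3 control reads leaves out contigs with higher counts than those it takes in.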

How the data were processed

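Raw RNA-seq read counts were deposited by the authors in 5 tables of library pairs, with scaled counts (a signal, per the file headers), a linear fold change as a ratio, and p-values. Cutadapt, Bowtie2 and DESeq were used upstream, per the submitters' processing notes, which give no version or setting; no source used here names the assembler. The 6 repeated count columns were identical in 6 of 6 cases. Median-of-ratios size factors over the 70998 contigs read in all 4 libraries were 0.885 (control), 1.13 (24 h), 1.15 (36 h) and 0.890 (72 h). Ratios are of scaled counts with nothing added unless stated. Intervals are Clopper-Pearson at 95%, for counting error only, and PCR duplicates were not removed here. No test across contigs was possible with 0 residual degrees of freedom. No deposited comparison of 24 h with 36 h and no sequence was used here. Members, lists and rules were chosen with earlier results of these data known. Named contigs are, among members, the 2 ranked highest over the control per duration by the lower interval bound. With 0 control reads, the ratio with 3 reads put in place of 0 was used if larger. Also named are the 2 higher and 2 lower per pair of durations by the bound nearest to 1, and the 2 steadiest with 1000 scaled counts. So are the 2 clusters with most members, the 2 on each side of each threshold, and the member with most reads per duration. Others were singled out after their values were seen. The calculation was tested on simulated data. Python 3.11.15, pandas 2.3.3, numpy 2.4.6, scipy 1.17.1, R 4.3.3 and edgeR 4.0.16 (for TMM factors) were used.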

Additional observations from a re-analysis of the deposited data

How the results depend on the processing

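No paired analysis was possible because each condition has 1 library, and no replicate could be left out. Of 168 values recomputed under alternatives, 105 moved by at most 1.5-fold (counts), 0.1 (median log2) or the counting interval (shares), and 63 moved further. Only a median log2 can change sign, and 0 of these did. With library totals the median log2 of 72 h over 24 h was -0.35. Under the 4 scalings the members' median lay below that of the 29826 contigs by 0.46 to 0.47 in that pair. With a minimum of 50 scaled counts, 27 of 312 members were 4-fold apart. By pair these were 11 for 36 h over 24 h, 8 for 72 h over 36 h and 22 for 72 h over 24 h. At that minimum 11 contigs were missing from 36 h alone and 5 from 72 h. The shares of reads were 0.313%, 0.270% and 0.274%. With a minimum of 200, 5 of 164 members were 4-fold apart, with 0 and 0 for the steps. Then 6 contigs were missing from 24 h, and the shares were 0.268%, 0.232% and 0.213%. With 0 control reads allowed there were 148 members in 40 clusters, 0 of them 4-fold apart in any pair (0, 0 and 0), with shares of 0.155%, 0.141% and 0.117%. With 1 read allowed, 2 of 188 members were 4-fold apart (2, 1 and 0 by pair), with shares of 0.220%, 0.195% and 0.166%. With 10 reads allowed there were 301 members in 119 clusters, 26 of them 4-fold apart (12, 7 and 16 by pair). The shares were then 0.441%, 0.369% and 0.360%. Counts summed per cluster before the rule gave 57 clusters, 5 of them 4-fold apart (4 for 72 h over 36 h, 1 for 72 h over 24 h) and a median log2 of -0.041 for 72 h over 36 h. At a threshold of 2-fold 56 members were apart (33, 16 and 44 by pair) and at 8-fold 4 (0 and 0 for the steps). Of all contigs with at least 100 scaled counts in both libraries, 9.54%, 8.32% and 12.3% by pair were at least 2-fold higher. At least 2-fold lower were 9.14%, 4.87% and 12.5%. Within 1.5-fold were 99 members. The status column of the authors' deposited tables called 5 and 6 members higher for 72 h over 24 h and 36 h, against 2.55% and 2.72% of all contigs. For 72 h over the control it called 219 members higher, among 2823 so called of 103801 contigs tested. The rule used that contrast, so nothing is read from the 219. Alternatives chosen after seeing the data were members summed per cluster, with medians of -0.28 and -0.10 for the steps, 3 clusters 4-fold apart for 72 h over 24 h, 42 within 2-fold, 52 highest at 24 h and 39 lowest at 72 h; the rule without the 24 h, 36 h or 72 h library, with 265, 267 and 246 members; and clusters with at most 3 control reads only, with 156 members. Depth limits the control: a member with 0 reads there was taken to have up to 3.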
